A study of Mus musculus with 2 samples.

Results

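The genes described here are the replication-dependent histone genes of the mouse, which supply the core histones H2A, H2B, H3 and H4 and the linker histone H1 while a cell copies its DNA. They were taken as the protein coding gene rows whose older symbol begins with Hist1h, Hist2h, Hist3h or Hist4h, with each deposited gene identifier named from the GENCODE M21 annotation. That gave 64 genes of 21474 protein coding rows and 43346 mouse gene rows, namely 6 H1, 18 H2A, 15 H2B, 12 H3 and 13 H4 genes. The rule itself uses symbols and no measured value. M21 gives such a name to 67 coding genes. Hist1h2bm, Hist1h2bh and Hist2h2bb matched no identifier and were not analysed here.

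The study sequenced total RNA of facial prominences, from which jaws, palate and nose arise, taken from B6NCrl mouse embryos of mixed sex at embryonic day 15.5. There was 1 group with 2 libraries, which the labels call biological replicates. Replicate 1 came from a pool of 78 embryos and replicate 2 from a pool of 62, each with 10 ng of RNA longer than 200 nt and added spike-in RNA. The study had no treatment or second genotype, so the comparisons below are between genes, between gene classes and between the replicates, and carry no test.

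In most cells a histone gene of this kind has no intron, and its mRNA ends in a short stem-loop instead of a poly(A) tail. The stem-loop binding protein Slbp, the U7 small nuclear RNA and a cleavage complex make that end, and the mRNA is made and kept mainly during S phase. Among the replacement histones, H3.3, encoded by H3f3a and H3f3b, comes from ordinary polyadenylated mRNAs and is made throughout the cell cycle. The labels name total RNA and also link the manual of a SMARTer Ultra Low kit, which primes on poly(A). The labels leave it unstated whether poly(A) RNA was enriched, and its part in the levels of these mRNAs was not tested.

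The stem-loop is shown first because it is the feature that sets these mRNAs apart. Searching the M21 transcripts of the members for its letters found it in 42 of the 64 genes, in 6 spellings. Other genes were not searched, so no share over all genes is given. Of the 22 genes without a match, 10 have M21 models that hold coding sequence alone. One gene stands for each spelling, written 5′ to 3′ as DNA from the M21 transcript, with the 16 bases of the stem-loop in capitals and their flanks in lower case.
Hist1h2ap: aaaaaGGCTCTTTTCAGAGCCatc
Hist1h4d: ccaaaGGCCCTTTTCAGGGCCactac
Hist1h2bk: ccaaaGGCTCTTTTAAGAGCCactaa
Hist2h4: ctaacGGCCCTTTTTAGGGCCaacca
Hist1h4j: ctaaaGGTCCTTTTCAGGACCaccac
Hist2h2ac: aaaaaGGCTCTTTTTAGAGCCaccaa
The spelling of Hist1h2ap was found in 24 genes, among them 3 H1 genes and both Hist3 genes. That of Hist1h4d was found in 7 genes, all H4, and that of Hist1h2bk in 6. The other 3 spellings occurred in 2, 2 and 1 genes.

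Levels are given in TPM, a share of all transcripts that is corrected for transcript length and so allows genes to be compared. Of the 64 genes, 49 (76.6%) had 1 TPM or more in both replicates, against 65.4% of all protein coding rows. Their median level was 4.32 TPM, against 6.13 TPM over all protein coding rows. By mean level, 3 genes lay at 100 TPM or above, 15 between 10 and 100, 35 between 1 and 10 and 11 below 1 TPM. The summed level of the 64 genes was 3579 TPM in replicate 1 and 3230 TPM in replicate 2, a mean of 3405 ± 246 TPM (SD, n = 2). A single gene row, Hist1h2ap, held 69.1% of the mean sum. Hist1h2ap shares most of its sequence with Hist1h2ao, which was listed at 0. This share is therefore best read as that of the pair, and it also rests on how reads shared with other H2A genes were divided. The top 5 genes held 85.1% and the top 10 held 91.1%.

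**Figure D1:**
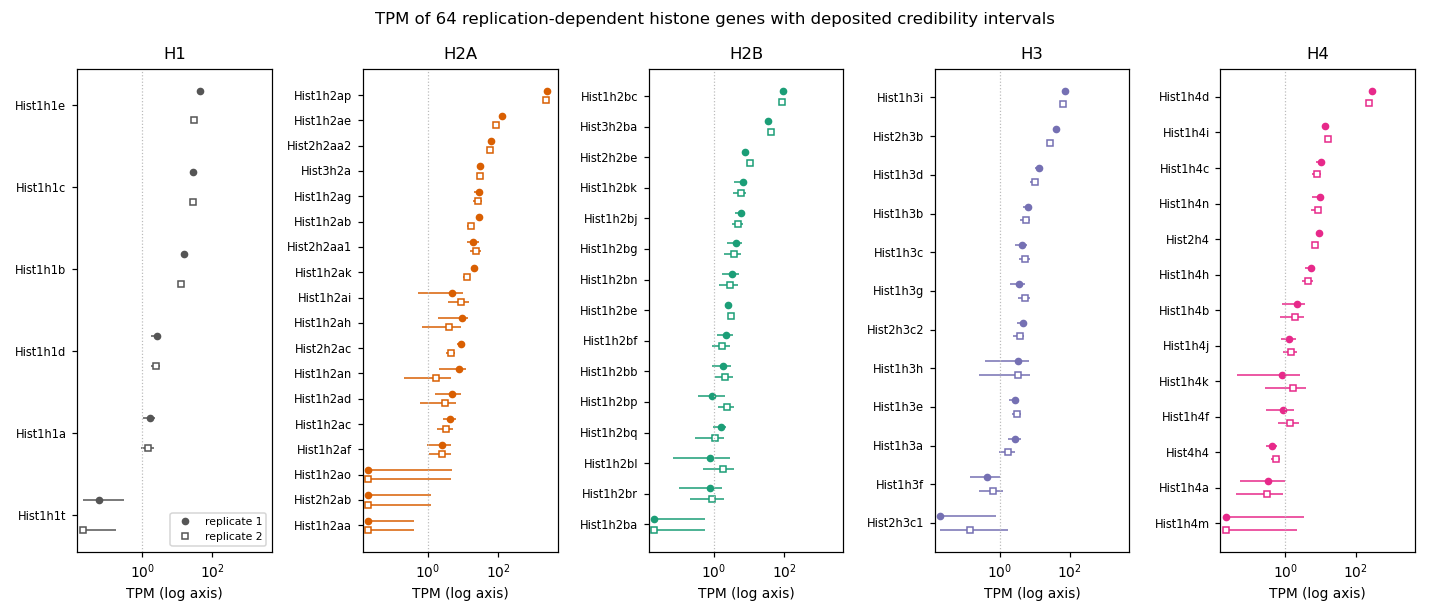
TPM on a log axis for each of the 64 genes in 5 panels by histone class, with filled circles for replicate 1, open squares for replicate 2 and horizontal lines for the deposited credibility intervals. Values under 0.02 TPM are drawn at 0.02, and the dotted line marks 1 TPM. In every panel 1 or a few genes lie far above the rest, and Hist1h2ap at 2436 and 2271 TPM is the highest of all.

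By class, the H2A genes had the highest summed level, with 2801 TPM in replicate 1 and 2558 TPM in replicate 2. The H4 genes followed with 355.9 and 289.3 TPM, the H2B genes with 171.1 and 175.5 TPM, the H3 genes with 158.4 and 132.4 TPM and the H1 genes with 92.33 and 74.97 TPM. The replicate ranges of neighbouring classes in this order did not overlap. The place of H2A rests on Hist1h2ap: without it the H2A genes summed to 364.8 TPM in replicate 1 and 286.9 TPM in replicate 2, a range that overlaps that of H4. The order of the other 4 classes does not depend on that gene.

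H2A and H2B form a dimer in each nucleosome, and most of their genes lie side by side. Hist1h2ap is an H2A gene on the minus strand of chromosome 13 at chr13:21833026-21833507 in M21 (GRCm38). It had 2436.25 TPM in replicate 1 and 2271.27 TPM in replicate 2, from 22991 and 22355 expected counts. Its mean of 2354 ± 117 TPM (SD, n = 2) was 21.4 times that of the next H2A gene, Hist1h2ae, with 131.2 and 88.9 TPM.

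Hist1h2ap has a near copy, Hist1h2ao, on the plus strand at chr13:21810465-21810944. Hist1h2ao was listed at 0 TPM and 0 expected counts in both replicates, where 3 counts would have given 0.320 TPM in replicate 1 and 0.306 TPM in replicate 2. The deposited upper credibility bound for Hist1h2ao was 4.83 TPM in replicate 1 and 4.62 TPM in replicate 2. The contrast between these copies rests on few bases. The Hist1h2ap model of 482 bases and the Hist1h2ao model of 480 bases are letter for letter the same over 452 bases, coding sequence and stem-loop included. Hist1h2ap adds 30 bases before that stretch and Hist1h2ao adds 28 bases after it. The deposited effective lengths are 99 bases under the transcript lengths, so windows of 100 bases were used to compare genes. Of the 383 windows of Hist1h2ap, 30 (7.83%) occurred in no other M21 gene on either strand. Reads from the shared stretch cannot be told apart by sequence, so the 2 genes are best read as a pair with a summed level equal to that of Hist1h2ap. In all, 32 M21 genes share windows with Hist1h2ap, after Hist1h2ao chiefly Hist1h2ag, Hist1h2ac, Hist1h2ad and Hist1h2ah. The summed level of the pair therefore also rests on how reads shared with those genes were divided.

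The sequence between the starts of Hist1h2ap and its H2B neighbour Hist1h2br is shown because the same letters stand before the copy listed at 0. Of the 235 bases between the 2 M21 starts, the Hist1h2ap entry of RefSeq's promoter table (GRCm38.p6) covers the 218 at chr13:21833508-21833725, read here on the minus strand toward Hist1h2ap, with CCAAT in either direction in capitals.
Hist1h2ap promoter: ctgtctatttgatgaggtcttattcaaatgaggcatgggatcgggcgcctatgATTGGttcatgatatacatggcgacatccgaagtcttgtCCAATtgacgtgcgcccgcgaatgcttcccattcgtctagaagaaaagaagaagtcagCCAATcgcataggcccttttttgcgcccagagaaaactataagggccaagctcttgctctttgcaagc
The first 200 bases of this sequence also stand, unbroken and unchanged, in the RefSeq promoter of Hist1h2ao, where the run stops because that promoter window ends. The RefSeq promoters of their H2B neighbours, Hist1h2br and Hist1h2bq, were the same at all 300 positions. On the opposite strand they cover all 218 bases shown and reach into the 30 bases that the Hist1h2ap model adds. Part of those 30 bases thus also stands before the Hist1h2ao model, and there the copies differ only in where the models start. Hist1h2br had 0.77 TPM in replicate 1 and 0.88 TPM in replicate 2, and Hist1h2bq had 1.63 and 1.06 TPM. Both H2B genes were thus near 1 TPM, beside an H2A gene above 2000 TPM and one listed at 0. The split of reads between the H2A copies is not resolved, so these are not 2 separately measured H2A levels. The H2B levels are poorly resolved too: in replicate 1 the credibility interval of Hist1h2br ran from 0.101 to 1.68 TPM. In M21, 85.7% and 99.8% of the windows of the 2 Hist1h2br transcripts occur in Hist1h2bq. The coding Hist1h2bq model has 1254 bases there and 2121 as deposited, so these shares may not hold for the deposited models.

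Of the other H2A genes, Hist2h2aa2 had 63.8 and 60.8 TPM in replicates 1 and 2, Hist3h2a 31.1 and 29.5 TPM, and Hist1h2ag 27.7 and 26.9 TPM. Hist1h2aa, an H2A gene known from the testis, and Hist2h2ab were listed at 0 in both replicates. The remaining 10 H2A genes had means between 2.54 and 22.8 TPM. Hist2h2aa1 and Hist2h2aa2 have the same coding sequence, and none of their 100-base windows was their own. They also lie within the antisense genes Gm20633 and Gm20632, and since no source used here states whether strand was used in counting, reads of each gene and its antisense partner may be mixed.

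Among the H2B genes the highest was Hist1h2bc, with 97.1 TPM in replicate 1 and 90.3 TPM in replicate 2. Hist3h2ba followed with 35.0 and 43.9 TPM, and Hist2h2be, whose model of 2620 bases runs far past its coding sequence, with 7.87 and 10.7 TPM. The other 12 H2B genes had means of 6.50 TPM or less. Hist1h2ba, the H2B gene of the testis, was listed at 0 in both replicates, where 3 counts would have given 0.427 TPM in replicate 1 and 0.410 TPM in replicate 2.

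The 12 pairs of an H2A and an H2B gene that point away from each other had starts 176 to 306 bases apart, and the partners' levels were alike in some pairs and far apart in others. In 6 pairs the H2A gene had the higher TPM in both replicates, in 2 pairs the H2B gene did, and in the other 4 neither did. Of the 2 pairs with H2B higher, 1 was Hist1h2ao with Hist1h2bq. Its levels are not resolved from those of Hist1h2ap and Hist1h2br. Hist1h2ah and Hist1h2bk, for example, had means of 6.67 and 6.50 TPM. The H2A gene's credibility interval lay wholly above that of H2B in both replicates in 4 pairs, namely Hist1h2ap with Hist1h2br, Hist1h2ae with Hist1h2bg, Hist1h2ag with Hist1h2bj and Hist1h2ak with Hist1h2bn. Hist1h2ae was 27.9 times as high as Hist1h2bg, which had 4.17 TPM in replicate 1 and 3.72 TPM in replicate 2. The reverse held for 1 pair: Hist1h2ac had 4.36 and 3.23 TPM, against 97.1 and 90.3 TPM for Hist1h2bc. The pair of germ cell genes, Hist1h2aa and Hist1h2ba, was at 0 on both sides. Spearman's rho between the partners' mean levels was 0.07 over the 12 pairs, which share both libraries and in part the same sequence, and is given as a description.

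**Figure D2:**
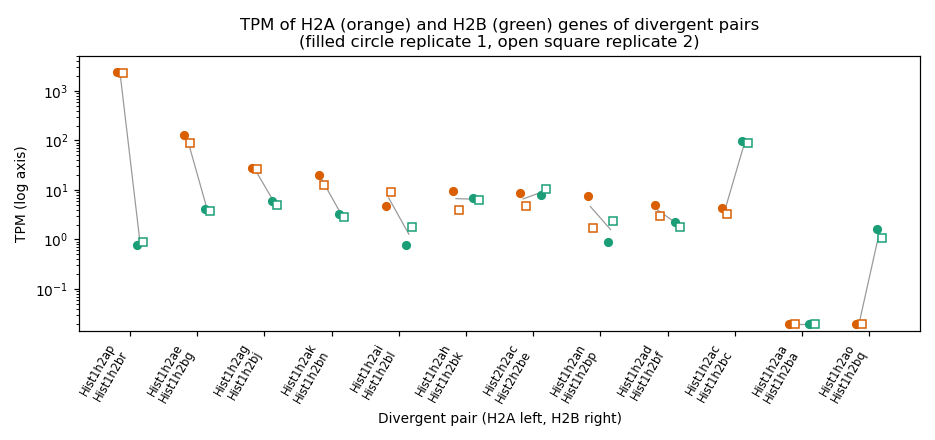
TPM on a log axis of the H2A gene (orange, left) and the H2B gene (green, right) of 12 divergent pairs, with filled circles for replicate 1 and open squares for replicate 2, values under 0.02 TPM drawn at 0.02 and grey lines joining the means. Lines fall steeply for Hist1h2ap at 2354 against 0.825 TPM and rise for Hist1h2ac at 3.79 against 93.7 TPM.

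H3 and H4 form the tetramer at the centre of the nucleosome. Hist1h4d was the highest of either class, with 302.1 TPM in replicate 1 and 238.3 TPM in replicate 2, a mean of 270.2 ± 45.1 TPM (SD, n = 2). The next H4 genes were Hist1h4i, with 13.81 and 16.02 TPM, and Hist1h4c, with 10.1 and 8.12 TPM. All 13 H4 genes encode the same protein in their M21 coding sequences, which differ by synonymous bases and are 85.3% to 100% alike in letters between genes. Hist1h4d thus held 83.8% of the summed level of that 1 protein's genes. Hist1h4a was the lowest H4 gene above 0, with 0.32 and 0.29 TPM, and Hist1h4m was listed at 0 in both replicates. Hist1h4m and Hist1h4n share 267 of the 303 windows of Hist1h4m, and Hist1h4n had 9.48 TPM in replicate 1 and 8.34 TPM in replicate 2.

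The 12 H3 genes encode 2 proteins that differ at 1 residue, known as H3.1 and H3.2. The 4 genes of the H3.1 protein, Hist1h3a, Hist1h3g, Hist1h3h and Hist1h3i, summed to 85.2 TPM in replicate 1 and 75.6 TPM in replicate 2. The 8 genes of the H3.2 protein summed to 73.2 and 56.9 TPM. The replicate ranges of these groups did not overlap, though the second group's replicate 1 value and the first group's replicate 2 value were close. Hist1h3i led the first group with 75.6 and 65.2 TPM, and Hist2h3b led the second with 41.2 and 28.2 TPM. Hist1h3d had 13.4 and 10.0 TPM, and Hist2h3c1 was the lowest H3 gene, with 0 TPM in replicate 1 and 0.14 TPM in replicate 2. Every 100-base window of Hist2h3b and of Hist2h3c1 occurred in another gene as well, in Gm20628 and Gm20634, so their separate levels rest on how the shared reads were divided.

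For H2A, 9 of the 18 genes encode the protein of Hist1h2ap and together had 2645 and 2421 TPM in replicates 1 and 2. The other 9 genes encode 8 further proteins. For H2B there were 8 proteins among 15 genes: the 3 genes of the Hist1h2bc protein summed to 103.9 and 97.1 TPM, and the 6 genes of the Hist1h2bj protein, which differs at 1 residue, to 14.8 and 13.4 TPM. In the group of Hist1h2bc most of the level lay on that gene, while in the group of Hist1h2bj it was spread over all 6 genes, from 5.48 TPM for Hist1h2bj to 0.825 TPM for Hist1h2br.

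The linker histone H1 binds where DNA enters and leaves the nucleosome, and its 6 genes encode 6 different proteins. Hist1h1e had 43.9 TPM in replicate 1 and 29.7 TPM in replicate 2. Hist1h1c had 28.3 and 28.0 TPM, and Hist1h1b 15.8 and 13.2 TPM. Hist1h1d, with 2.63 and 2.50 TPM, and Hist1h1a, with 1.64 and 1.5 TPM, were lower by more than the spread between replicates. The testis gene Hist1h1t had 1 expected count in replicate 1 and 0 in replicate 2, under the level that 3 counts would give. In M21, 351 of the 2000 windows of 1 Hist1h2be transcript occur in Hist1h1e too. That M21 Hist1h1e model has 1930 bases and the deposited one 748. The sharing therefore cannot be carried over to the deposited Hist1h1e level.

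By location, the Hist1 cluster on chromosome 13 holds 52 of the 64 genes and 93.8% of the summed TPM in replicate 1 and 93.4% in replicate 2. The 9 Hist2 genes on chromosome 3 summed to 155.2 and 138.0 TPM in replicates 1 and 2, and the 2 Hist3 genes on chromosome 11 to 66.2 and 73.4 TPM. Hist4h4, alone on chromosome 6, had 0.42 and 0.55 TPM. Gaps of over 100000 bases divide the Hist1 genes into 4 blocks of 17, 5, 28 and 2 genes. The first block, with Hist1h2ap, summed to 2583 and 2397 TPM, and the third, with Hist1h4d, Hist1h2ae, Hist1h2bc and Hist1h1e, to 710.6 and 563.8 TPM. High genes were spaced out among low ones: Hist1h4m at 0 and Hist1h4n at 9.48 and 8.34 TPM stand between Hist1h2ao and Hist1h2ap. Hist1h4m and Hist1h2ao share most of their windows with Hist1h4n and Hist1h2ap, so their values of 0 are not well resolved. Their upper credibility bounds in replicate 1 were 3.45 and 4.83 TPM. The last block is the germ cell pair Hist1h2ba and Hist1h2aa, both at 0.

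**Figure D3:**
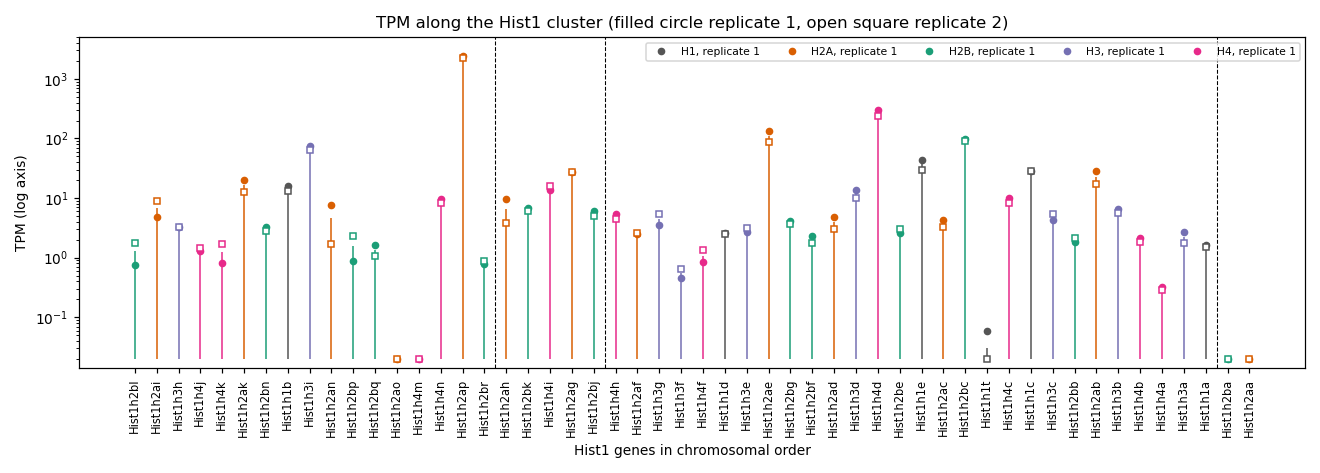
TPM on a log axis of the 52 Hist1 genes in chromosomal order, coloured by class, with filled circles for replicate 1, open squares for replicate 2, vertical lines up to the mean and values under 0.02 TPM drawn at 0.02. Dashed lines part the 4 blocks, and Hist1h2ap, Hist1h4d, Hist1h2ae, Hist1h2bc and Hist1h3i stand above 50 TPM between neighbours that are mostly below 10 TPM.

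Promoter letters were compared by class. RefSeq's table gave the 300 bases around the start, from 250 before to 50 after, for 59 of the 64 genes. CCAAT, searched on both strands, was in all 6 H1, 18 H2A, 13 H2B and 10 H3 promoters and in 3 of 12 H4 promoters, against 37.4% of all 32851 promoters in the table. TATAAA was in 35 of the 59 (59.3%), against 13.6% of all. The octamer ATTTGCAT, known from H2B promoters, was in 7 H2A and 5 H2B promoters and in no other class, against 1.74% of all. Divergent H2A and H2B promoters overlap, so a match in such a window counts for both. The letters TTTCGCGC or TTTGGCGC, a form of the E2F site, were in 5 H2A and 4 H2B promoters, against 0.813% of all. The H1 box AAACACA was in 5 of 6 H1 promoters and in 3 of the other 53, against 7.18% of all. None of these 6 letter strings is contained in another.

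The next promoters show these letters in the leading genes of H4, H1 and the second H2A gene, with every match to the searched motifs in capitals and each read 5′ to 3′ on its gene's strand (RefSeq, GRCm38.p6). That of Hist1h4d is the 250 bases at chr13:23581318-23581567 on the plus strand. That of Hist1h1e is the 250 bases at chr13:23622559-23622808 on the minus strand. For Hist1h2ae the 175 bases between its start and that of Hist1h2bg are given, at chr13:23571221-23571395 on the minus strand.
Hist1h4d: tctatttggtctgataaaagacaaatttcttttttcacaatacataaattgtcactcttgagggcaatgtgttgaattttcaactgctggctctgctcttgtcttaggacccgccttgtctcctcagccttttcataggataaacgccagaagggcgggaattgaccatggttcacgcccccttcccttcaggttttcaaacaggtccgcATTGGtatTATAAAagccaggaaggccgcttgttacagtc
Hist1h1e: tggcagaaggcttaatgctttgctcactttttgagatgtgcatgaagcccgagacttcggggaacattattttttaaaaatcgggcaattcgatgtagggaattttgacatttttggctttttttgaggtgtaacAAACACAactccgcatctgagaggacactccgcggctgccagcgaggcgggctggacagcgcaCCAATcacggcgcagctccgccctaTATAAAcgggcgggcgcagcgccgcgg
Hist1h2ae: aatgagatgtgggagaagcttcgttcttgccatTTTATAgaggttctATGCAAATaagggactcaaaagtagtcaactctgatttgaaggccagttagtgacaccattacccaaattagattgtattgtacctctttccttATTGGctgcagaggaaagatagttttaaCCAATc
Hist1h4d holds a CCAAT in reverse and a TATAAA close together, Hist1h1e the H1 box, a CCAAT and a TATAAA, and Hist1h2ae the octamer, a TATAAA in reverse and a CCAAT in each direction. The Hist1h2ap promoter held CCAAT 3 times and none of the other motifs. Among the 12 H4 genes with a promoter, the 3 with CCAAT had mean levels from 0.305 to 270.2 TPM and the 9 without from 0 to 14.9 TPM. Among the 18 H2A genes, those with the octamer had a median of 6.67 TPM, against 6.88 TPM for those without.

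The replicates were compared with edgeR's TMM scaling of the rounded expected counts, as log2 of replicate 2 over replicate 1, for the 51 genes with 10 or more counts in both. The other 13 genes fell below that number in a replicate and are not in these counts. The median was -0.17, against 0.00 over the 15714 protein coding rows held to the same filter, and 37 of the 51 genes (72.5%) lay below 0, against 48.6% of those rows. Of the 51 genes, 8 were lower in replicate 2 by more than 1.5 times, against 2.13% of all coding rows, and 3 were higher by that much, against 4.35%. In all, 11 of the 51 (21.6%) passed 1.5-fold in either direction, against 6.48%. Of these 11, 9 had a mean count under 100, where counting error is large.

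The genes past 1.5-fold were 6 H2A genes lower in replicate 2, Hist1h2ab, Hist1h2ad, Hist1h2ah, Hist1h2ak, Hist1h2an and Hist2h2ac, with Hist1h2bq and Hist1h3a, and 3 genes higher, Hist1h2ai, Hist1h3g and Hist1h2br. Hist1h2an, a gene with 16.7% of its windows of its own, had the largest difference, with 7.56 TPM in replicate 1 and 1.71 TPM in replicate 2. Its credibility intervals, 2.13 to 11.96 TPM in replicate 1 and 0.205 to 4.66 TPM in replicate 2, overlapped. Hist1h2ai, with 11.6% of its windows of its own, had 4.80 TPM in replicate 1 and 8.95 TPM in replicate 2. Hist1h2an and Hist1h2ai encode the same protein.

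Credibility intervals of the 2 replicates did not overlap for 11 of the 51 genes, against 17.0% of the coding rows at 10 or more counts (19.7% with TPM rescaled to mouse genes, under which the same 11 histone genes stood apart). Of the 51 genes, 9 had intervals apart and were lower in replicate 2, against 8.56% of the coding rows: Hist1h2ap, Hist1h2ae, Hist1h2ab, Hist1h2ak, Hist2h2ac, Hist1h1e, Hist2h3b, Hist1h4d and Hist2h4. Hist2h2be and Hist3h2ba were higher. Hist2h4 had 9.20 TPM in replicate 1 and 6.86 TPM in replicate 2, with every window of its own. Hist2h2be likewise shared no window, with intervals of 7.03 to 8.41 TPM in replicate 1 and 9.65 to 11.2 TPM in replicate 2. Both directions thus occurred among genes whose reads are not shared. Of the 11 genes with intervals apart, 3 were also past 1.5-fold: Hist1h2ab, Hist1h2ak and Hist2h2ac.

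**Figure D4:**
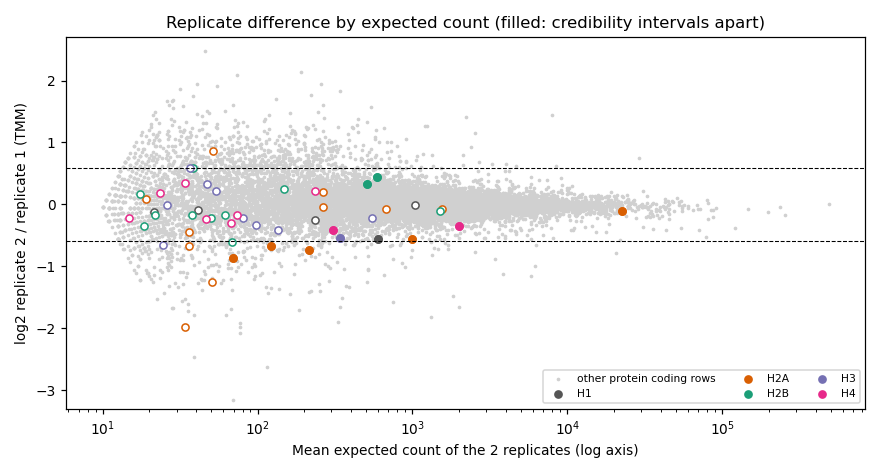
log2 of replicate 2 over replicate 1 against the mean expected count on a log axis, for 51 histone genes coloured by class and, in grey, the other protein coding rows with 10 or more counts in both replicates. Filled points have credibility intervals that do not overlap, dashed lines mark 1.5-fold, and 37 of the 51 histone genes lie below 0.

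The replicates also differed in the RNA of some cell type markers and in spike-in share, which are given beside that difference. The summed level of 8 erythroid markers was 26711 TPM in replicate 1 and 20222 TPM in replicate 2, and 7 of the 8 had a log2 ratio below 0, with a median of -0.38. Hemgn was the exception. The 12 markers of facial mesenchyme had a median of 0.21 and the 6 of facial epithelium -0.12. All 18 of these facial markers reached 1 TPM in both replicates, and none of 6 germ cell markers did. The part of the erythroid cells in the replicate difference of the histone genes was not tested, and in such bulk samples fewer cells of a type and less RNA per cell cannot be told apart. Spike-in RNA took 2.91% of the counts in replicate 1 and 4.59% in replicate 2. The libraries held 37128010 and 38543623 expected counts in all (replicates 1 and 2), of which 37166 and 35455 fell on the 64 genes.

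A credibility interval is the range that the quantification itself gives for a level. Its width over the posterior mean TPM, averaged over the replicates, shows how tightly the quantification placed that level. The level of credibility was not given in the sources used here. The median relative width was 0.633 over the 51 genes with 10 or more counts, against 0.172 over all coding rows with that many, which have more counts per gene. At like counts the gap was smaller. Between 30 and 100 counts, the 21 histone genes had a median width of 0.705, against 0.602 for 1488 other coding rows, and 18 of the 21 lay above that value. Between 300 and 1000 counts, the medians were 0.189 for 8 histone genes and 0.200 for 3701 other rows.

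Among the 51 genes with 10 or more counts in both replicates, the 5 widest intervals belonged to Hist1h3h, Hist1h2br, Hist1h2ah, Hist1h2an and Hist1h2ad, between 1.58 and 1.83 times their posterior mean. Hist1h3h had 3.32 TPM in both replicates and an interval from 0.390 to 6.94 TPM in replicate 1, and 8.01% of its windows were its own. Of these 5 genes, 4 had under 20% of their windows to themselves, and the share was not computed for Hist1h2ad, whose deposited model differs from M21. The 5 narrowest belonged to Hist1h2ap, Hist1h4d, Hist3h2a, Hist1h2bc and Hist1h1c, between 0.0277 and 0.123. Hist1h2ap is thus the narrowest of the 51 with only 7.83% of its windows its own. A narrow interval therefore need not mean that a gene was told apart from a near copy. Hist1h2ap is also the 1 gene of the 64 whose deposited TPM lay above its own upper bound in both replicates. Its interval was 2344 to 2410 TPM in replicate 1 and 2187 to 2248 TPM in replicate 2. Of the 51 genes, 27 had a TPM above the posterior mean in both replicates. For Hist1h4d the TPM and the posterior mean in replicate 1 were 302.1 and 295.3 TPM. Neither count was made over all coding rows, so neither is read as a trait of these genes.

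**Figure D5:**
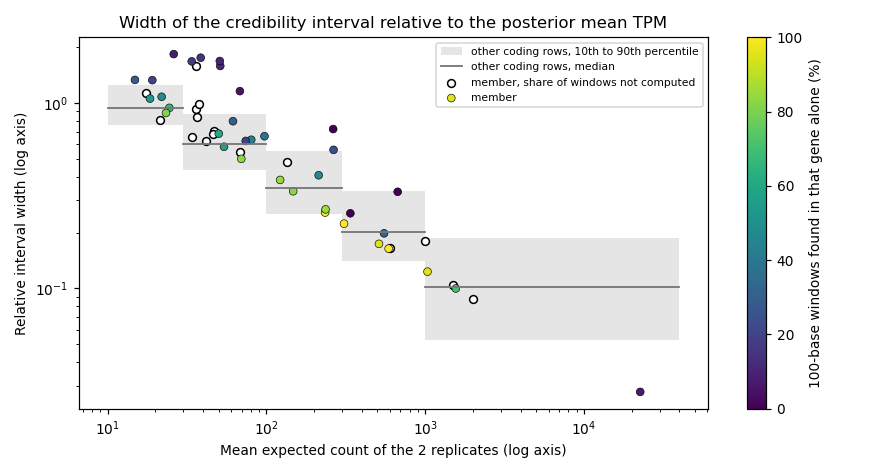
Relative width of the credibility interval against the mean expected count, both on log axes, for 51 histone genes, coloured by the percentage of 100-base windows found in that gene alone, over the median (line) and the range from the 10th to the 90th percentile (grey) of other coding rows. Dark points, genes that share most of their windows, lie mainly above the grey boxes at low counts, and Hist1h2ap lies lowest at the right.

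The share of windows could be computed for 46 genes with a deposited transcript that is the same in M21, and had a median of 41.8%. Where a gene had several such transcripts the longest was used. For Hist1h2bq the transcript compared had 0 counts in both replicates, and the one that held all of its TPM differs from M21. The 14 genes with under 20% to themselves included 11 with 10 or more counts, with a median relative width of 1.16, which is the width of Hist1h2bq itself. The 17 genes with 60% or more included 12 such genes, with a median of 0.262, though their median count was higher, 235 against 68.1. Spearman's rho with the width was -0.47 for the share of windows and -0.89 for the count over the same 35 genes, which share both libraries, and is given as a description.

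For 60 of the 64 genes there was 1 transcript row. The other 4 were H2B genes. Of the Hist1h2be transcripts, the noncoding processed one held 69.9% of the gene's TPM in replicate 1 and 78.8% in replicate 2. Hist1h2br was given 42.9% on a transcript marked for nonsense-mediated decay in replicate 1 and 100% in replicate 2. Hist1h2bq had all of its TPM on 1 coding transcript, and Hist1h2bp 58.7% and 64.8% on the shorter of its 2 coding transcripts.

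Where the deposited model is the M21 one, its 3′ end shows which form of the mRNA the model describes. In 17 genes the model stopped within 100 bases of the stem-loop, and their transcripts summed to 2622 TPM in replicate 1 and 2437 TPM in replicate 2, of which all but a mean of 175.8 TPM was Hist1h2ap. In 9 genes the model ran on for 169 to 1643 bases past the stem-loop and these summed to 126.2 and 132.7 TPM. Without Hist1h2ap the 2 kinds thus had means of 175.8 and 129.5 TPM. Transcripts without a stem-loop match, from 21 genes, summed to 196.6 TPM in replicate 1 and 161.1 TPM in replicate 2. Genes whose deposited model differs from M21, such as Hist1h4d, are in none of these sums.

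Genes that act with the histone genes were read beside them as context. Of 12 genes for histone mRNA processing, 11 had 1 TPM or more in both replicates, led by Slbp with 167.3 TPM in replicate 1 and 153.9 TPM in replicate 2, then Srrt with 69.2 and 67.8 TPM and Cpsf3, the cleavage enzyme, with 64.7 and 65.8 TPM. Rnu7, the U7 RNA, was listed at 0, and it is shorter than the RNA kept for the libraries. All 20 S-phase genes and all 12 histone chaperones reached 1 TPM in both. Pcna, the sliding clamp of DNA replication, had 167.5 and 154.5 TPM, Tyms 150.1 and 140.1 TPM and Mcm6 140.3 and 144.1 TPM. The highest chaperone genes were Rbbp7, with 337.9 and 339.6 TPM, Rbbp4, with 262.1 and 254.4 TPM, and Atrx, with 147.0 and 143.4 TPM. None of the 43 of these genes with 10 or more counts in both replicates passed 1.5-fold, against 6.48% of all coding rows. Most of them had far higher counts than the histone genes, so the 2 sets were not compared on this.

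Replacement histone genes were set against the replication-dependent genes of their class. The labels leave poly(A) enrichment unstated, and its part in the ratios below was not tested. The 12 H3 genes averaged 145.4 ± 18.4 TPM in sum, against 3544 ± 65.0 TPM for H3f3a, H3f3b and Cenpa (SD, n = 2), a ratio of 0.041. The 6 H1 genes averaged 83.7 ± 12.3 TPM, against 438.9 ± 5.64 TPM for H1f0 and H1fx, a ratio of 0.191. The 18 H2A genes averaged 2680 ± 172 TPM, against 2054 ± 36.6 TPM for 6 replacement H2A genes led by H2afz, a ratio of 1.30. Without Hist1h2ap the H2A sum was 325.9 TPM, so this order turned on that gene. All 11 replacement genes reached 1 TPM in both replicates, and H3f3a alone had 1928 TPM in replicate 1 and 2089 TPM in replicate 2. Whether each of the 11 makes only polyadenylated mRNA, H2afx among them, was not examined.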

How the data were processed

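The 2 total RNA libraries of 1 group were used. Per the file headers, the authors aligned each library to mm10 with annotation M4 and deposited, per gene and transcript, expected counts, TPM, FPKM, posterior means and the lower and upper credibility bounds, which are the authors' score-like bounds in TPM and FPKM units. Transcript shares within a gene are the deposited percent values. The aligner's and the quantification program's names are not stated in the labels or headers. Genes were named by stable identifier from GENCODE M21, in which 42 of the 64 members have the deposited version. The members, the context lists and the rule for named genes were chosen with earlier results of these data known. That rule took the 3 highest genes and the lowest of each class, the germ cell genes, every H1 gene, the 5 widest and 5 narrowest intervals, each gene past 1.5-fold or with intervals apart, each divergent pair, each shared protein, and the top 3 of each context list.

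Replicate ratios used edgeR 4.0.16 (R 4.3.3) TMM factors, computed on rows with 10 or more counts in both, expected counts rounded to whole numbers and a prior count of 2, and were tested on simulated data. DESeq2 1.42.0 size factors were an alternative. Mean ± SD is over 2 replicates. The level that 3 counts would give is quoted where a gene is at 0 and covers counting error only. Shared proteins were found by translating M21 coding sequences, since the protein table planned for this was not used here. Windows and stem-loops come from M21 transcripts, promoters from RefSeq (GRCm38.p6). Stem-loops were searched as 16 letters, GG at the start, CC at the end and CTTTT in the loop side, allowing variation at other positions. With 1 group there was no comparison of conditions, so no p-value was computed. Counting error is largest for genes under 10 counts.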

Additional observations from a re-analysis of the deposited data

How the results depend on the processing

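Across 62 recomputed values, 49 stayed within the replicate spread or within 1.5 times a count and 13 did not. For the sums, leaving out a replicate could not pass that spread, because each of 2 values lies within their SD of the mean. The tally thus holds values that could not have moved. Sums, counts and widths cannot be negative, so only the median log2 ratio could have changed direction, and it did not. With TPM rescaled to mouse gene rows, which removes the spike-in share, the sum of the 64 genes was 3709.5 TPM, with 2920.0 TPM for H2A, 189 TPM for H2B, 3473 TPM for Hist1, 159.7 TPM for Hist2 and 76.2 TPM for Hist3. Leaving out Hist1h2ap, an alternative chosen after seeing the data, gave 1051 TPM for all 63 genes, 326 TPM for H2A and 834 TPM for Hist1. Requiring 5 TPM in both replicates left 25 of the 49 detected genes. With spike-in counts as library size, the median log2 ratio was -0.80, but that of all coding rows was -0.65, and 37 genes passed 1.5-fold (also chosen after seeing the data). With 100 or more counts in both, the median relative interval width was 0.211, because fewer and better counted genes were left. Rescaled TPM bounds, also added later, left the same 11 genes with intervals apart. No paired analysis was possible because the study has 1 group. Depth limits the 13 genes under 10 counts in a replicate, and shared sequence limits the genes with few windows of their own.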

Other observations

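The 3 histone pseudogene rows lie outside the choice of protein coding genes. Hist1h2aj was listed at 0 TPM in replicate 1 and 6.41 TPM in replicate 2, from 0 and 41.7 expected counts, and its deposited interval in replicate 1 reached 9.94 TPM. Hist1h2al had 1.56 TPM in replicate 1 and 0.40 TPM in replicate 2. Hist3h2bb-ps had 0.96 and 0.81 TPM. Hist1h2aj shares windows with Hist1h2ai, Hist1h2ah and Hist1h2an, 3 of the genes whose levels differed by more than 1.5 times between the replicates.

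Rows that overlap the Hist2 genes were low but not at 0. Gm20634, whose model covers every window of Hist2h3c1, had 2.54 TPM in replicate 1 and 3.32 TPM in replicate 2. Gm20632, antisense to Hist2h2aa2, had 1.55 and 2.46 TPM. RefSeq places the start of Hist1h2ap 32 bases inside the M21 gene, beyond the 30 bases by which the M21 model differs from Hist1h2ao.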
